A study of Mus musculus with 8 samples.

Results

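Ribosome density in oligodendrocytes was described for 6716 of the 10987 transcripts listed for the series. These are the transcripts with 1 FPKM or more in the footprint library and in the RNA-seq library of both oligodendrocyte cultures, where FPKM are fragment counts scaled to the length of the feature and to the size of the library. Of the 7669 transcripts at that level in both RNA-seq libraries, the other 953 had footprints under 1 FPKM in at least 1 culture.

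The cells came from an in vitro model of the 129S/SvEv strain, in which OPCs (oligodendrocyte progenitor cells) are made from mouse pluripotent stem cells. OPCs were kept in medium with N2 Max, B27, bFGF and PDGFA, and oligodendrocytes were differentiated from them for 3 days in N2 Max and B27 with noggin, IGF-1, cyclic AMP, NT3 and T3, the thyroid hormone. Frozen cells were lysed in the presence of emetine, part of each lysate was digested with micrococcal nuclease to isolate the fragments protected by single ribosomes (footprints), and RNA from the undigested part was cut by alkali and sequenced beside them. There were 2 cultures of each cell type, pooled over dishes, and the study describes a population of OPCs that stays undifferentiated beside the oligodendrocytes. The markers of the labelled cell type were present: of 11 listed oligodendrocyte markers, 10 were at 1 FPKM or more in RNA from each culture of oligodendrocytes, against 4 of 11 in OPCs, and their summed RNA was 4171 and 3718 FPKM in oligodendrocytes against 48.8 and 51.9 FPKM in OPCs. Markers of OPCs were present too, with all 8 listed at 1 FPKM or more and a summed RNA of 1489 and 1546 FPKM in oligodendrocytes against 1217 and 1108 FPKM in OPCs. Astrocyte markers summed to 1144 and 1022 FPKM against 495 and 436 FPKM in OPCs, of which S100b, also made by oligodendrocytes, held 675 and 633 FPKM in oligodendrocytes, and neuronal markers summed to 193 and 210 FPKM. The 2 listed microglial markers were at 0 in both oligodendrocyte RNA-seq libraries, and the listed endothelial and pluripotent markers stayed under 1 FPKM. The part of the remaining OPCs in the values below was not tested, and in bulk cultures fewer cells of a type and less RNA per cell cannot be told apart.

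A ribosome shields a short stretch of the mRNA it translates, so the number of footprints on a coding sequence, divided by the amount of that mRNA, gives the average load of ribosomes on a copy of the message. This ratio, the ribosome density (RD), rises with the rate at which ribosomes start and falls when they move faster, and it does not measure protein directly. Oligodendrocytes make large amounts of membrane protein and lipid for the myelin sheath, and mRNAs of the translation machinery, of stress regulators and of polyamine metabolism are known for control at the step of translation.

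RD was taken within each culture as footprint FPKM on the coding sequence over RNA FPKM on the whole transcript. Its median was 2.09 in culture 1 and 1.97 in culture 2, and values below are log2 RD minus the median of the culture, so that 0 is the middle transcript and 1 is a ratio of 2 times the median. The SD of log2 RD over transcripts was 0.93 in culture 1 and 1.19 in culture 2, and the middle 50% of transcripts lay between -0.63 and 0.56 in culture 1 and between -0.83 and 0.72 in culture 2. Across the 6716 transcripts the cultures correlated with a Pearson's r of 0.78, a description over transcripts that share their libraries. For a single transcript the SD between the cultures had a median of 0.27 (n = 2). RD was at least 2 times the median in both cultures for 587 transcripts and at most 1/2 of it in both for 740, while 1260 transcripts lay on opposite sides of the median.

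Footprint library 2 of the oligodendrocytes stood apart. It listed 31.1% of all transcripts at 0, against 14.7% in footprint library 1, and 783 transcripts left the set because of this library alone, against 25 because of library 1 alone. Its low values also began higher, with a 1st percentile of 0.300 for footprint FPKM times coding kilobases, against 0.108 in library 1. Some abundant messages were among those lost. Ptma, which encodes the chromatin protein prothymosin alpha, had 989 footprint FPKM in culture 1 and was listed at 0 in culture 2, with 420 and 482 RNA FPKM. Hspe1, the mitochondrial co-chaperone, had 457 footprint FPKM in culture 1 and was listed at 0 in culture 2, although OPCs had 1303 and 1308. In all, 24 transcripts were listed at 0 in library 2 with at least 50 FPKM in library 1, and none the other way round. These messages were thus without a ratio in 1 culture although the other held many footprints. A few had almost no footprints in either culture: Svip, an inhibitor of degradation at the ER, was listed at 0 in both with 31.9 and 33.2 RNA FPKM, and was at 0 in OPC footprints as well.

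**Figure D1:**
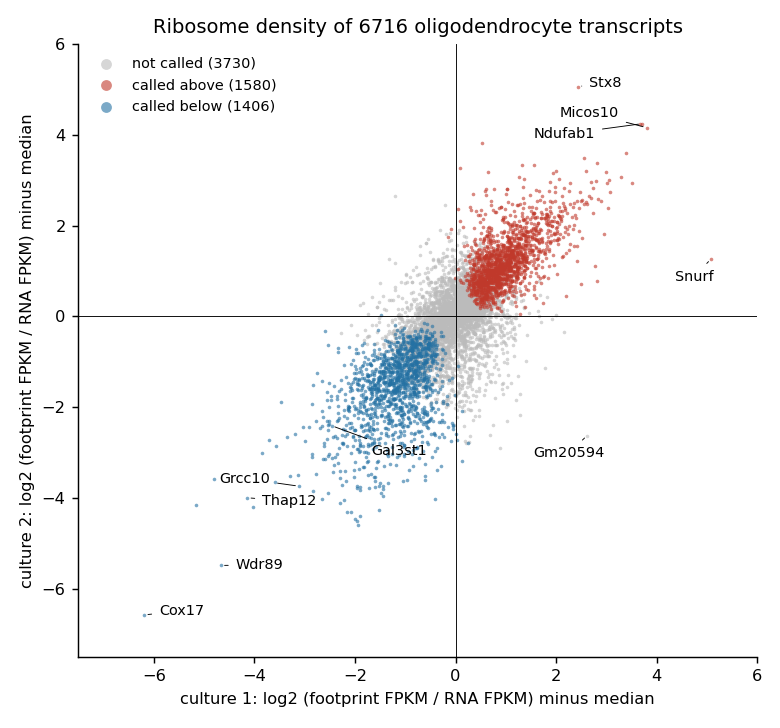
Log2 ribosome density (footprint FPKM over RNA FPKM) of each of the 6716 transcripts, minus the median of the culture, in oligodendrocyte culture 1 (x axis) and culture 2 (y axis). Red and blue points mark the 1580 transcripts called above and the 1406 called below the median by limma, and points below the median reach further down in culture 2 than in culture 1, with a wider SD of 1.19 against 0.93.

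Each transcript was compared with the culture median by limma on its log2 RD in both cultures, with Benjamini-Hochberg adjustment over the 6716. At an adjusted p under 0.05, 2986 transcripts departed from the median (44.5%), 1580 above it (23.5%) and 1406 below it (20.9%). Where the text says above or below, the transcript passed this test. Counts for a list below are to be read against these shares of all transcripts. With 2 cultures an exact permutation test between the cell types cannot give a p below 0.333, and the adjusted p-values rest on the spread that limma shares between transcripts. The middle of the scale is a choice: with the ratio of summed FPKM as 0, the medians of the cultures move to -0.42 and -0.43, 3440 transcripts depart and 25.5% of these are above, against 52.9% with the median as 0. Directions below are relative to the median transcript.

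Micos10 had the highest RD. This subunit of the complex that shapes the inner mitochondrial membrane had 663 and 664 footprint FPKM on 22.7 and 18.8 RNA FPKM in cultures 1 and 2. Its log2 RD was 3.98 ± 0.25 (SD, n = 2, limma adjusted p = 7.51e-16), which is 15.8 times the median. Ndufab1, an acyl carrier protein of complex I, had 200 and 248 footprint FPKM on 7.28 and 6.63 RNA FPKM, a log2 RD of 3.98 ± 0.38. Both cultures placed these messages at the upper edge of the distribution. Tomm6, a small subunit of the outer membrane import pore, reached 3.96 ± 0.40, although its exons overlap those of another gene, Gm21981, and Timm17a, of the inner membrane import channel, reached 3.10 ± 0.40. Uqcrq, a subunit of complex III, had 941 and 630 footprint FPKM on 39.2 and 41.4 RNA FPKM, a log2 RD of 3.23 ± 0.40. Ubl5, a ubiquitin-like protein, stood at 3.50 ± 0.16, Sf3b5, a splicing factor subunit, at 3.02 ± 0.030, and Rab11b, a regulator of recycling endosomes, at 3.08 ± 0.13. The 12 highest also held the histone gene Hist4h4 at 3.19 ± 0.15 and Bricd5 at 3.02 ± 0.66.

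The cultures were far apart for another 2 of the 12 highest. For Stx8, a syntaxin of endosomes, footprints were alike at 76.9 and 72.1 FPKM while RNA was 6.78 and 1.10 FPKM, giving log2 RD of 2.44 and 5.06. Snurf, which shares exons with Snrpn, had RNA of 1.64 and 22.9 FPKM and log2 RD of 5.08 and 1.26, and its call was lost without the trend of variance on abundance. For several of the highest the coding sequence is a small part of the annotated transcript. It covers 228 of 2549 nucleotides in Micos10, 468 of 3479 in Ndufab1, 513 of 7280 in Timm17a and 654 of 6109 in Rab11b. RNA FPKM are divided by that full length, and shorter transcripts of the same gene would change them; their part in these values was not tested.

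At the lower end, Cox17, a copper chaperone of cytochrome c oxidase, had 2.65 and 1.46 footprint FPKM on 92.4 and 70.9 RNA FPKM, a log2 RD of -6.38 ± 0.28 (SD, n = 2, limma adjusted p = 2.11e-13). It shares exons with Gm21987 on the same strand, and how the authors' counting split the reads between them is not known, so its value is uncertain. The next lowest without such an overlap was Wdr89, a WD-repeat protein, with 3.02 and 1.94 footprint FPKM on 36.6 and 44.0 RNA FPKM, a log2 RD of -5.08 ± 0.58 or 33.7 times below the median. Wtip, a LIM protein of cell junctions, followed at -4.66 ± 0.71, and Whrn, a scaffold protein, at -4.19 ± 0.85. Thap12, a zinc-binding THAP domain protein, had 5.36 and 4.92 footprint FPKM on 45.1 and 39.8 RNA FPKM, a log2 RD of -4.07 ± 0.099.

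These messages were as abundant as many of the high ones and carried few ribosomes in both cultures. Dvl1, the intracellular Wnt transducer dishevelled, was at -3.34 ± 0.71, and Ryk, a receptor that binds Wnt, at -3.34 ± 0.97. Nsmf, a protein that shuttles to the nucleus, was at -3.41 ± 0.16, and 2610507B11Rik at -3.63 ± 0.044. The other 3 of the 12 lowest, Grcc10, Gm20716 and Rsc1a1, share exons with other genes on the same strand. Grcc10 lies over Rnu7, a small nuclear RNA gene, and had 1435 and 2369 RNA FPKM, the highest RNA of the 24 extreme transcripts. Without the 413 transcripts that share exons on the same strand, 2799 of 6303 departed from the median.

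Of the 10 transcripts with the most footprints, 8 were above the median in ribosomes for each unit of RNA, against 23.5% of all transcripts. Footprints are also the upper part of the ratio, so choosing by footprints favours a high RD. Cnp, the myelin enzyme 2',3'-cyclic nucleotide phosphodiesterase, had 5268 and 4921 footprint FPKM on 1325 and 1118 RNA FPKM, a log2 RD of 0.92 and 1.16 (mean 1.04 ± 0.16, limma adjusted p = 4.26e-07). Actb, the cytoskeletal actin, stood at 1.29 ± 0.25, the prolyl isomerase Ppia at 1.65 ± 0.0026, the acyl-CoA binding protein Dbi at 1.31 ± 0.0051, the protease inhibitor Cst3 at 1.06 ± 0.072 and the tetraspanin Cd81 at 1.13 ± 0.20. Fabp7, a fatty acid binding protein of glial progenitors, had 7107 and 4324 footprint FPKM but also 2629 and 2008 RNA FPKM, so that its log2 RD of 0.25 ± 0.17 did not pass the test (limma adjusted p = 0.129). Gm20594, with a coding sequence of 111 nucleotides, had the highest footprint value of library 1 at 17109 FPKM and 692 FPKM in library 2, and log2 RD of 2.62 and -2.63. For this transcript the cultures lay on opposite sides of the median. Of the genes that the study uses as codon examples, Cdipt, which makes phosphatidylinositol, stood at 1.10 ± 0.064 and Rlim, a ubiquitin ligase, at 0.20 ± 0.0011, which did not pass the test.

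Proteins of myelin and of the oligodendrocyte surface lay high as a group. Of 40 kept of 48 listed, 27 were above the median (67.5%, against 23.5% of all transcripts) and 2 below (Fyn and Gal3st1), and the median log2 RD was 0.68 in culture 1 and 0.94 in culture 2. Cd9, a tetraspanin, had 1307 and 2279 footprint FPKM on 222 and 232 RNA FPKM, a log2 RD of 1.91 ± 0.58, and Tubb4a, the main beta tubulin of oligodendrocytes, stood at 1.80 ± 0.54. Mag, an adhesion protein of the inner myelin layer, had 1383 and 1485 footprint FPKM on 371 and 317 RNA FPKM, a log2 RD of 1.04 ± 0.29. The outer surface protein Mog reached 0.97 ± 0.42, the tight junction protein Cldn11 reached 0.91 ± 0.057, and Mapt, the axonal and oligodendroglial tau, reached 1.75 ± 0.11. Of the gap junction proteins, Gjc3 was at 0.89 ± 0.35, while Gjb1, at -0.01 ± 0.019, did not pass the test.

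Enzymes of myelin lipids lay far apart. Fa2h, which adds the 2-hydroxyl group of myelin sphingolipids, was at 1.42 ± 0.65. Ugt8a, which makes galactosylceramide, had 753 and 992 footprint FPKM on 224 and 257 RNA FPKM, a log2 RD of 0.82 ± 0.20. Gal3st1, the sulfotransferase that turns galactosylceramide into sulfatide, had 39.9 and 31.5 footprint FPKM on 105 and 84.9 RNA FPKM, a log2 RD of -2.47 and -2.41 (limma adjusted p = 2.52e-10). Gal3st1 was thus 5.42 times below the median, with the cultures close together. The kinase Fyn, which acts in early myelination, was below the median at -0.39 ± 0.33, and the mean log2 RD of the septins Sept4 and Sept8, the deacetylase Sirt2 and the transporter Abca2 lay between -0.33 and 0.29 and did not pass the test.

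**Figure D2:**
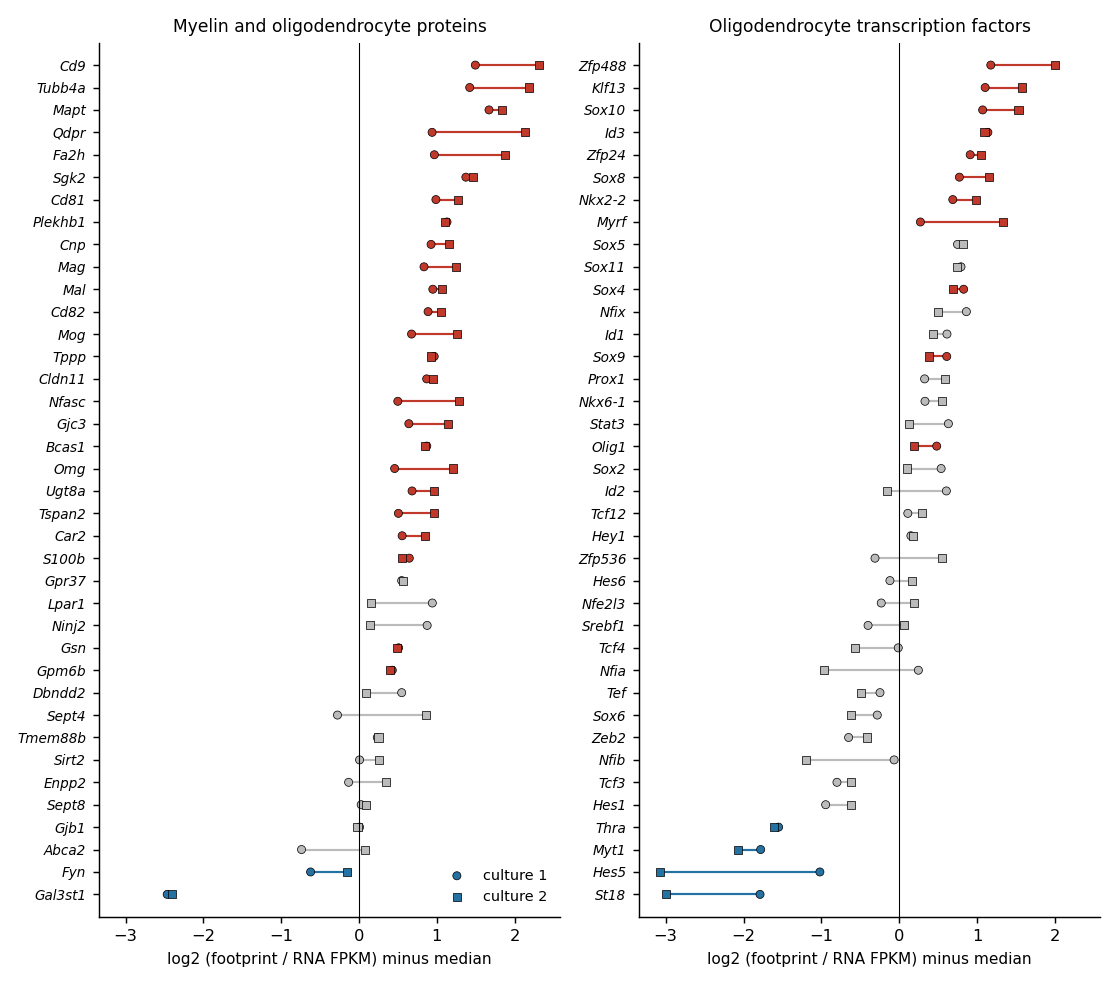
Log2 ribosome density of 38 of the 40 kept myelin and oligodendrocyte proteins (left) and the 38 kept oligodendrocyte transcription factors (right), minus the culture median. Circles are culture 1 and squares culture 2, red marks genes called above and blue below the median, and grey marks genes that did not pass the test. Most myelin genes lie to the right of 0, with Gal3st1 alone near -2.4, and the transcription factors spread from St18 at -2.39 to Zfp488 at 1.59.

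Transcription factors of the lineage did not lie to one side. Of 38 kept, 11 were above (28.9%, against 23.5% of all transcripts) and 4 below (10.5%, against 20.9%). Their median of 0.27 falls below 0 when the ratio of summed FPKM is set as 0. Sox10, the factor that drives myelin genes, had 443 and 500 footprint FPKM on 101 and 87.6 RNA FPKM, a log2 RD of 1.07 and 1.53. Its relative Sox8 was at 0.96 ± 0.27, Nkx2-2 at 0.84 ± 0.21, Zfp488 at 1.59 ± 0.58, Klf13 at 1.34 ± 0.34 and Myrf, which switches on late myelin genes, at 0.80 ± 0.75. Olig1 was closer to the median at 0.34 ± 0.21. The 4 below were St18 at -2.39 ± 0.85, its paralog Myt1 at -1.93 ± 0.21, the Notch target Hes5 at -2.05 ± 1.45 and Thra. Thra encodes the thyroid hormone receptor alpha, which binds the T3 that was added to the medium, and had 106 and 78.6 footprint FPKM on 148 and 122 RNA FPKM, a log2 RD of -1.55 and -1.61 (limma adjusted p = 3.1e-08).

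Zinc finger proteins, the largest family of transcription factors, lay low as a group. Of 234 kept of 337 listed, 101 were below (43.2%, against 20.9% of all) and 6 above, with a median of -0.88 in culture 1 and -0.81 in culture 2. Zkscan5 had 4.08 and 1.18 footprint FPKM on 10.3 and 5.79 RNA FPKM, a log2 RD of -2.84 ± 0.62, and Zfp692 stood at -2.78 ± 1.08. Zfp593, a small factor of ribosome assembly, was above at 1.73 ± 0.56. Immediate early genes, which respond to growth factors within minutes, had no member above and 6 of 12 below. Here the cultures differed in RNA: Fos had 21.3 and 12.8 footprint FPKM while its RNA was 13.0 and 48.6 FPKM, giving log2 RD of -0.36 and -2.90, and Dusp1 stood at -0.37 and -3.39. The median of the list was -0.23 in culture 1, -0.68 in culture 2 and -0.49 over both. Without culture 2 it was -0.0035. There the minimum of 1 FPKM and the centring used the libraries of culture 1 alone, so the members can differ. All list medians given without a culture were taken in this way.

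The translation machinery was divided. Cytosolic ribosomal proteins, whose mRNAs begin with a pyrimidine tract that ties them to mTOR signalling, had 27 of 57 kept members below the median (47.4%) and 11 above, with a median of -0.34 in each culture. Rplp0, the stalk protein, had 254 and 286 footprint FPKM on 532 and 595 RNA FPKM, a log2 RD of -2.09 ± 0.071. Rpl32 was at -1.43 ± 0.017, Rpl9 at -1.43 ± 0.12 and Rpl13 at -1.33 ± 0.015. At the other end Rpl41, with a coding sequence of 75 nucleotides, had 4195 and 3948 footprint FPKM on 457 and 595 RNA FPKM, a log2 RD of 1.94 ± 0.27, and Rpl28 stood at 1.65 ± 0.0083. The small subunit proteins had a median of -0.37 (11 of 20 below) and the large subunit proteins a median of -0.23 (15 of 35 below). Many of these genes have processed copies elsewhere in the genome, and how the authors' counting treated reads that match both is not stated, which makes single values uncertain.

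Initiation factors had 12 of 29 above and 4 below, with a median of 0.37, which is under 0 when the ratio of summed FPKM is set as 0. Eif5a, the hypusine-bearing factor that helps ribosomes across difficult sequences, had 1185 and 1356 footprint FPKM on 159 and 160 RNA FPKM, a log2 RD of 1.97 ± 0.19, and Eif1ax, a factor of start site scanning, stood at 1.69 ± 0.048. Eif4e, which binds the cap, was at 1.65 ± 0.061 while its large partner Eif4g1 was at -0.50 ± 0.046. Among the 14 elongation factors and other messages of the same mTOR-linked class, 5 were above (35.7%, against 23.5% of all transcripts), led by the nucleolar protein Ncl at 1.96 ± 0.14. Another 4 were below (28.6%, against 20.9%), with Tpt1 the lowest at -0.64 ± 0.21. The median of 0.06 changed sign with the centring, with a minimum of 5 FPKM and without culture 1. Of the 17 aminoacyl tRNA synthetases, which load amino acids onto tRNAs, 5 were above (29.4%, against 23.5% of all transcripts) and none below. The 17 ran from Vars at -0.38 ± 0.18, which did not pass the test, to Aars at 0.79 ± 0.013. Their median of 0.14 changes sign with the centring and was 0.24 without culture 2. Enzymes that modify tRNA had 8 of 38 above and 8 below (21.1% each, close to the 23.5% and 20.9% of all transcripts). Their median of -0.13 was -0.03 in culture 1 over the same members. It was 0.02 without culture 2, where the members can differ. They ran from Trmt1 at -1.56 ± 0.65 to Ftsj1 at 2.22 ± 0.78, a methyltransferase whose RNA was 6.26 and 1.90 FPKM.

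Mitochondrial proteins made in the cytosol were above the median in about equal share across their complexes. Subunits of the respiratory chain and ATP synthase had 34 of 65 above (52.3%) and 4 below, with medians of 0.37 for complex I, 0.44 for complexes II to IV and 0.37 for ATP synthase. Their median coding length was 411 nucleotides, and 49.1% of all transcripts with 75 to 747 coding nucleotides were above. The part of length in these shares was not tested. The median of the whole list, 0.39, is under 0 when the ratio of summed FPKM is set as 0. Mitochondrial ribosomal proteins, with a median coding length of 600 nucleotides, had 32 of 64 above (50.0%) and 5 below. Their median was 0.49, and they ran from Mrps9 at -1.34 ± 1.10 to Mrps25 at 2.65 ± 0.054 and Mrps14 at 2.54 ± 0.10. Uqcc2, an assembly factor of complex III, was at -0.88 ± 0.12, with 174 and 161 footprint FPKM on 163 and 142 RNA FPKM.

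The secretory pathway and the lysosome were also high. Of 42 proteins of ER translocation and folding, 29 were above (69.0%) and Tmed2, a cargo receptor of transport vesicles, was the single one below, at -0.46 ± 0.023. Dad1, a subunit of the enzyme that attaches sugars to new proteins, had 735 and 739 footprint FPKM on 102 and 83.5 RNA FPKM, a log2 RD of 1.97 ± 0.27. Pdia3, a disulfide isomerase, was at 1.57 ± 0.30. Lysosomal enzymes and subunits of the vacuolar proton pump had 20 of 34 above and 2 below, with the pump subunit Atp6v0c at 2.50 ± 0.48 and Ids, which degrades heparan sulfate, at -1.89 ± 0.47. Extracellular matrix and secreted proteins had 14 of 30 above. Apod, a lipid carrier made by oligodendrocytes, had 62.9 and 79.2 footprint FPKM on 7.88 and 4.49 RNA FPKM, a log2 RD of 2.55 ± 0.87, and Col16a1 alone was below, at -1.23 ± 0.16.

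Cholesterol synthesis, a limiting step in the growth of myelin, had 12 of 21 members above and 3 below. Dhcr7, which completes cholesterol, had 255 and 344 footprint FPKM on 44.0 and 32.9 RNA FPKM, a log2 RD of 1.94 ± 0.66, and Ebp, a sterol isomerase, stood at 1.91 ± 0.40. Below the median were Mvk at -0.62 ± 0.29, Lbr at -0.94 ± 0.16 and Scap, the sterol sensor that escorts the SREBP factors out of the ER. Scap had 18.9 and 20.2 footprint FPKM on 37.4 and 35.7 RNA FPKM, a log2 RD of -1.93 ± 0.18. Solute carriers, a family of membrane transporters with no common function, had 23 above and 20 below of 111 kept. These shares were close to the 23.5% above and 20.9% below of all transcripts. The solute carriers ran from Slc35c2 at -2.58 ± 1.36 to Slc29a3 at 2.11 ± 0.62. Their median of 0.11 changes sign with the centring and was 0.015 without culture 2.

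Among the remaining lists, proteasome subunits had 17 of 34 above and Psme4, an activator of unusual length, as the only one below, at -2.23 ± 0.61. Chaperones had 17 of 47 above and 3 below, with a median of 0.35 that is under 0 when the ratio of summed FPKM is set as 0. Cytoskeletal proteins had 27 of 49 above, led by the dynein light chains Dynll2 at 2.83 ± 0.18 and Dynll1 at 2.16 ± 0.068, and 6 below, with the kinesins Kif1c at -2.10 ± 0.41 and Kif5c at -1.72 ± 0.30 the lowest. Splicing proteins had 26 of 52 above and 4 below. Hnrnpd, which binds AU-rich RNA, was at 2.78 ± 0.065, while the kinases Clk1 and Clk4, which phosphorylate SR proteins, were at -2.37 ± 0.67 and -3.27 ± 1.88. Ubiquitin ligases and adaptors had 36 of 128 below (28.1%, against 20.9% of all transcripts) and 12 above (9.4%, against 23.5%), with a median of -0.32. Fbxl5, which senses iron, stood at -1.71 in culture 1 and -3.79 in culture 2, and Rnf122 at 2.03 ± 0.24.

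Replication-independent histones had the highest median of all lists, 1.35 in culture 1 and 1.25 in culture 2, with 10 of 11 above and none below. H3f3a, which encodes histone H3.3, had 933 and 1008 footprint FPKM on 71.2 and 81.6 RNA FPKM and the same log2 RD of 2.65 in both cultures, and H2afy alone, at 0.07 ± 0.010, did not pass the test. Replication-dependent histones, made in dividing cells, had 23 of 44 above (52.3%) and Hist1h2aa below. The median coding length of this list was 387 nucleotides, and 49.1% of all transcripts with 75 to 747 coding nucleotides were above. Its median log2 RD of 0.37 is under 0 when the ratio of summed FPKM is set as 0. Genes of that family are nearly identical copies, and their single values are uncertain.

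**Figure D3:**
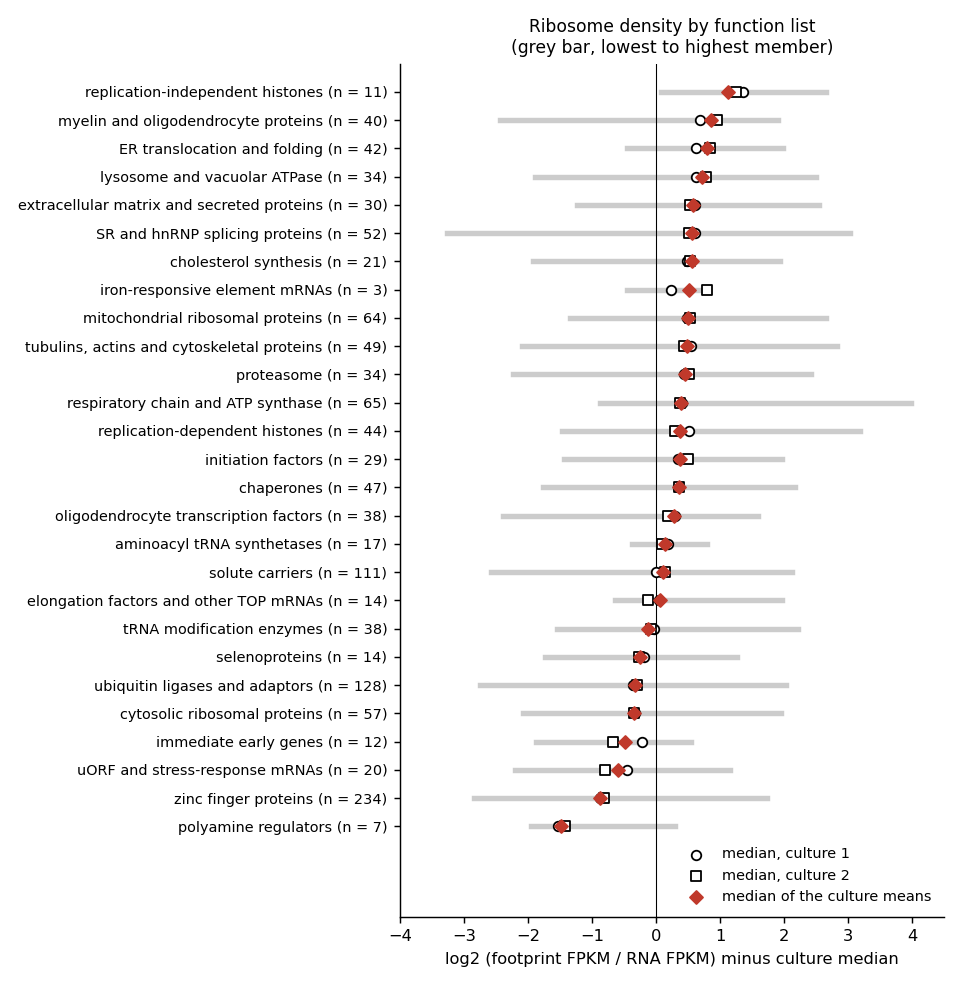
Median log2 ribosome density of 27 function lists, minus the culture median of all transcripts, in culture 1 (circles), in culture 2 (squares) and over the culture means (diamonds), with grey bars from the lowest to the highest member and the number of kept members beside each name. Replication-independent histones and myelin proteins lie at the top, with medians of 1.12 and 0.85, and zinc finger proteins and polyamine regulators at the bottom, with -0.88 and -1.48.

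The polyamine regulators had the lowest median of all lists, at -1.54 in culture 1 and -1.42 in culture 2, over only 7 kept members. Their translation is known to respond to the polyamines themselves. Of the 7, 5 were below and none above. Oaz1, the antizyme that needs a shift of reading frame to be made in full, had 277 and 226 footprint FPKM on 385 and 434 RNA FPKM, a log2 RD of -1.73 ± 0.27. Sat1, which acetylates spermidine and spermine for export, was at -1.48 ± 0.088, the polyamine transporters Atp13a2 and Atp13a3 were at -1.63 ± 0.056 and -1.96 ± 0.25, and the oxidase Smox was at -0.70 ± 0.11. The synthases of spermidine and spermine, Srm and Sms, stood at 0.30 ± 0.16 and 0.16 ± 0.11 and did not pass the test.

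A similar spread was found for messages of the stress response and others known for upstream reading frames, short frames before the coding sequence that capture scanning ribosomes. Of 20 kept, 8 were below (40.0%, against 20.9% of all) and 3 above, with a median of -0.46 in culture 1 and -0.80 in culture 2. The median over both cultures was -0.60. Without culture 2 it was -0.23, with the members and the centre taken from culture 1 alone. Ddit3, the stress factor CHOP, had 10.6 and 9.27 footprint FPKM on 17.0 and 21.3 RNA FPKM, a log2 RD of -1.97 ± 0.30. Pnrc2, a cofactor of mRNA decapping, had 23.6 footprint FPKM in each culture on 52.6 and 54.8 RNA FPKM, a log2 RD of -2.21 ± 0.023. Slc35a4 stood at -1.97 ± 0.62, Ifrd1 at -1.02 ± 0.54 and Ppp1r15b at -0.76 ± 0.39. Above the median were the ubiquitin hydrolase Uchl1 at 1.16 ± 0.10, the growth arrest protein Gadd45a at 1.05 ± 0.24 and the secretase Bace1 at 0.83 ± 0.39. Bace1 has 4 upstream ATGs in its annotated 5′ UTR, so an upstream ATG did not go with a low RD in every member.

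The first upstream ATG of 6 genes that were below the median is shown here, from lists in which upstream frames are known or in which these genes stood out, so that the sites can be compared. Sequences are from the Gencode vM21 transcripts on GRCm38, 5′ to 3′, with the ATG in capitals.
Ddit3, chr10:127290816-127290845, plus strand: cgtcgattatatcATGttgaagatgagcgg
Ifrd1, chr12:40223142-40223171, minus strand: gctagagagaaacATGtatcgtttccgctc
Pnrc2, chr4:135873045-135873074, minus strand: ctgaggagactcgATGtggacctcagctcc
Gal3st1, chr11:3983713-3983732, plus strand: ggcATGgaccaggcctgcca
Thra, chr11:98741922-98741951, plus strand: ccaccggccccccATGgacgcccccggcac
Myt1, chr2:181767042-181767068, plus strand: ccaagggttcATGggtagcgtatttac
In Ddit3 this ATG opens a frame of 34 codons that ends before the coding sequence, and the 5′ UTR holds 2 ATGs. The frame of Ifrd1 has 52 codons and that of Pnrc2 has 56, and both end upstream of the coding sequence. Gal3st1 and Myt1 have 7 upstream ATGs each and Thra has 4, with first frames of 18, 23 and 8 codons. The ATG of Gal3st1 that lies 87 nucleotides before the annotated start is in frame with the coding sequence and has no stop before it. Footprints in the 5′ UTR are not part of the deposited values, so whether these frames were read in the cultures was not tested.

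Upstream ATGs and length went with RD across all 6716 transcripts. Transcripts without an ATG in the 5′ UTR (3399) had a median log2 RD of 0.19, those with 1 (1511) had -0.08, those with 2 (687) had -0.33, those with 3 (425) had -0.48 and those with 4 or more (694) had -0.56. Of the transcripts without one, 29.3% were above and 13.7% below the median, and of those with 4 or more, 13.4% were above and 36.2% below. Coding length went further: the shortest quintile of transcripts, from 75 to 747 nucleotides, had a median of 0.51, with 49.1% above, and the longest quintile, from 2472 nucleotides upward, had a median of -0.62, with 4.18% above and 36.2% below. Within each quintile of coding length the transcripts with an upstream ATG had the lower median, by little in the shortest quintile (0.47 against 0.53) and by more in the longest (-0.77 against -0.35).

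The Spearman correlation of mean log2 RD over the 6716 transcripts was -0.44 with coding length, -0.37 with the share of the transcript that is coding, -0.24 with the number of upstream ATGs, -0.22 with the number of exons and 0.16 with log2 RNA FPKM. These are descriptions, since coding length also divides the footprint value and transcript length and RNA abundance enter the RNA value. The study set the shares of UUU and AAA codons against mRNA half-life and scored ribosome pausing at these codons. RD is another measure, so it does not test those results. The codon shares went little with RD. The correlation was -0.08 with the share of UUU among phenylalanine codons and -0.09 with the share of AAA among lysine codons. Transcripts of the lowest quintile of UUU share had a median of 0.12 and those of the highest quintile -0.10, and for AAA share the medians were 0.10 and -0.12.

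**Figure D4:**
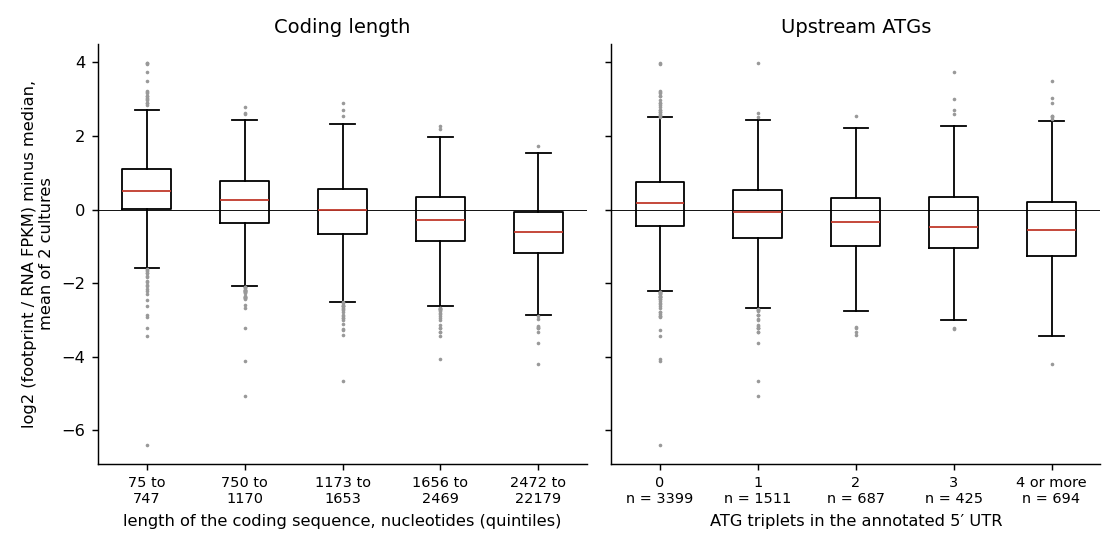
Mean log2 ribosome density of the 6716 transcripts in quintiles of coding length (left) and by the number of ATG triplets in the annotated 5′ UTR (right). Boxes span the quartiles with the median in red, whiskers reach 1.5 times the box and dots are transcripts beyond it. The medians fall from 0.51 to -0.62 over the quintiles of length and from 0.19 to -0.56 over the counts of upstream ATGs.

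Selenoproteins, which read UGA codons as selenocysteine, had 3 of 14 kept members below (21.4%, close to the 20.9% of all transcripts) and 2 above. Their median of -0.25 was -0.20 in culture 1 over the same members. It was 0.16 without culture 2, where the minimum applied to culture 1 alone and the members can differ. Selenop, which carries selenium between cells and has 10 in-frame TGA codons in its coding sequence, had the lowest value, with 79.7 and 39.3 footprint FPKM on 96.9 and 87.5 RNA FPKM and a log2 RD of -1.74 ± 0.55. Gpx4, the peroxidase that protects membrane lipids, had 329 and 239 footprint FPKM on 287 and 262 RNA FPKM, a log2 RD of -0.99 ± 0.17. The kept members apart from Selenop have 1 such codon each, including Selenoi, an enzyme of phospholipid synthesis that was above the median at 1.27 ± 0.21. The recoded site of Gpx4 is codon 73 of its coding sequence, shown with the TGA in capitals.
Gpx4, chr10:80054725-80054754, plus strand: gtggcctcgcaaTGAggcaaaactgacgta
Iron-responsive elements in an mRNA bind regulatory proteins when iron is scarce. Of the messages that carry them, Tfrc, the transferrin receptor, was above the median at 0.52 ± 0.40, and the iron transporter Slc11a2, at 0.75 ± 0.25, did not pass the test.

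Few transcripts passed the test for a difference in RD between oligodendrocytes and OPCs. With 2 cultures of each cell type this does not show that few differ. Of 6325 transcripts at 1 FPKM or more in all 8 libraries, 20 passed limma on the log2 RD of the 2 oligodendrocyte and the 2 OPC cultures (0.316%), 18 lower and 2 higher in oligodendrocytes, and 575 had an unadjusted p under 0.05. The adjusted p of the 20 lay between 0.045 and 0.0488, and without the trend of variance on abundance limma called 0 of the 6325, with 432 at an unadjusted p under 0.05. The main test left the cultures unpaired, although the study differentiated the oligodendrocytes from matching OPC replicates. With cultures paired by origin, as a replicate block, 305 passed, 247 of them lower. Without oligodendrocyte culture 1 the count was 879 and without culture 2 it was 2, where the spread comes from the OPC cultures alone and the lone oligodendrocyte culture is assumed to vary like them.

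Ribosomal proteins made up 12 of the 18 lower transcripts. Over the 57 listed cytosolic ribosomal proteins kept in both cell types the median change was -0.94, against -0.01 over all 6325 transcripts. Rps27 had log2 RD of -1.17 and -1.20 in the oligodendrocyte cultures against 0.23 and 0.20 in the OPC cultures, a change of -1.40 (standard error 0.17, limma adjusted p = 0.045). Rpl36a, Rpl17, Rpl27a, Rps19, Rpl13, Rpl9, Rpl26, Rps3a1, Rps4x, Rps20 and Rplp2 changed by between -1.37 and -1.09. In each, both oligodendrocyte cultures lay below both OPC cultures, which selection by the test favours. Tpt1, a growth-linked protein whose mRNA belongs to the same mTOR-linked class, fell from 0.84 and 1.32 to -0.79 and -0.49. Arpc1a and Arpc1b, alternative subunits of the Arp2/3 complex that branches actin filaments, fell by 1.34 and 1.46 on the log2 scale. Higher in oligodendrocytes were Chn2, a regulator of the GTPase Rac, which rose from -1.26 and -1.28 to 0.03 and 0.45, and March8, a membrane ubiquitin ligase, which rose from -2.64 and -3.42 to -1.22 and -0.95. Of the 12 lowest RDs of the oligodendrocytes, 11 were at 1 FPKM or more in all 8 libraries. Their log2 RD in the OPC cultures ran from -5.99 in Cox17 to -2.22 in Rsc1a1, all negative. Whether they departed from the OPC median was not tested. None of the 11 passed the test of the difference, which does not show that they were alike.

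**Figure D5:**
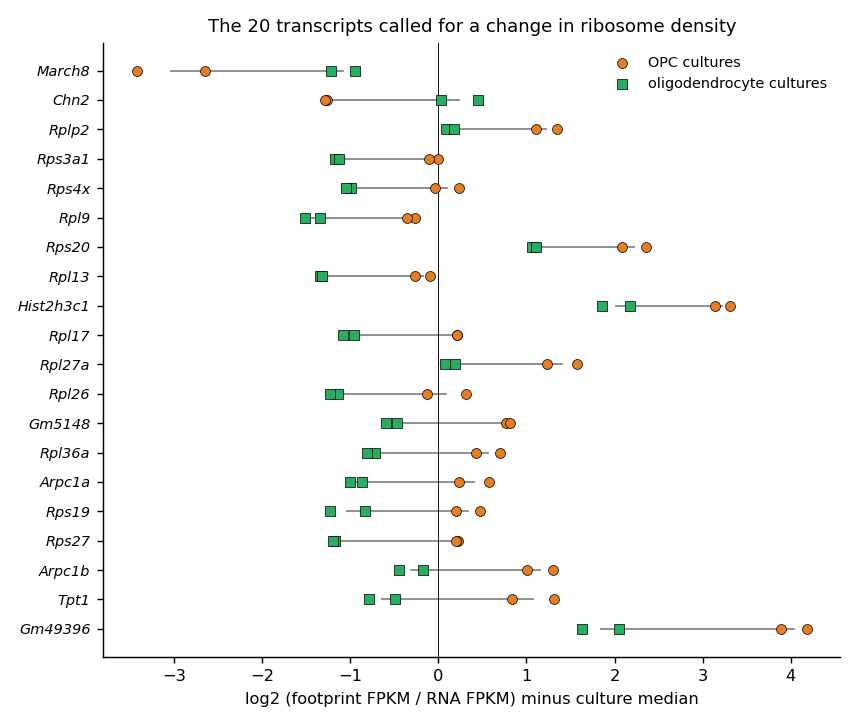
Log2 ribosome density, minus the culture median, of the 20 transcripts called for a difference between the cell types, in the 2 OPC cultures (orange circles) and the 2 oligodendrocyte cultures (green squares), with a line between the means. The 18 transcripts below Chn2 and March8 on the plot lie to the left in oligodendrocytes. The cultures of the cell types do not overlap in any of the 20, which selection by the test favours.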

How the data were processed

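Footprints and RNA of the same lysates were sequenced from 2 OPC and 2 oligodendrocyte cultures, and libraries were grouped by cell type, kind and replicate number in their labels. The authors deposited FPKM per transcript: reads of at least 18 nucleotides were mapped to GRCm38 with HISAT2 2.1.0 and FPKM were tabulated with StringTie 1.3.5 on canonical coding transcripts of Gencode vM9, on the CDS for footprints. FPKM hold no counts, and read totals are not used here, so no counting interval is given. Each of the 8 columns was used.

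RD is footprint over RNA FPKM within a culture, with no pseudocount, for transcripts at 1 FPKM or more. Log2 RD, less the culture median, was tested against 0 with limma 3.58.1 (R 4.3.3; eBayes, a trend on mean log2 FPKM, 1 residual degree of freedom, Benjamini-Hochberg, threshold 0.05), and between cell types with the same settings. In the test within oligodendrocytes each ratio is taken within a culture, which equals a block on the replicate number. The test between cell types had no such block. Deviations of footprints and RNA from the same culture correlated with r = 0.22 in oligodendrocytes and those of OPC and oligodendrocyte RD of the same number with r = 0.14, over 6325 transcripts; the pairing is taken from the study's methods. On simulated ratios of the oligodendrocyte comparison (6716 transcripts, 200 shifted), 91, 190 and 200 were recovered at log2 shifts of 1, 2 and 3, with 7, 14 and 18 false calls. The noise was drawn from the spread that limma fitted, and 44.5% of transcripts were called in the data. These counts therefore do not measure false calls or errors of centring in the data.

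Lengths, upstream ATGs and overlaps came from Gencode vM21 (10987 of 10987 identifiers matched, 10985 with a CDS). Genes were named by rule: the 12 highest and lowest called, the 2 highest and lowest of each list, members of 6 lists, the 10 with most footprints and the study's codon examples. Some genes that the rule would name are not reported here. The OPC values of the 12 lowest, single ribosomal proteins, Eif4e, Eif4g1, Mvk and the transcripts without usable ratios were chosen after their values were seen. Members, lists and tests were chosen with earlier results of these data known. The study calls replicates of this kind biological, and p-values measure the spread between these cultures alone. Alternatives were another pseudocount, minimum, centring, trend or block, each culture left out, and transcripts without shared exons.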

Additional observations from a re-analysis of the deposited data

Results flagged for a closer look

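The 20 transcripts whose RD differed between oligodendrocytes and OPCs are given here with their log2 change, because the same footprint to RNA contrast differed between the cell types by limma's test of the difference (adjusted p between 0.045 and 0.0488, higher or lower in both pairs of cultures for each). The changes were -1.40 for Rps27, -1.72 for Tpt1, -1.32 for Rpl36a, -1.32 for Gm5148, -1.23 for Rpl17, 1.51 for Chn2, -1.27 for Rpl27a, -1.34 for Arpc1a, -1.37 for Rps19 and -1.16 for Rpl13. They were -1.12 for Rpl9, -1.46 for Arpc1b, -1.28 for Rpl26, -1.10 for Rps3a1, -1.20 for Hist2h3c1, -2.19 for Gm49396, -1.12 for Rps4x, -1.14 for Rps20, 1.95 for March8 and -1.09 for Rplp2. Hist2h3c1 belongs to a family of nearly identical genes. None of the 20 passed without the trend of variance on abundance. Groups of 2 cultures are too small to test a culture as an outlier.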

How the results depend on the processing

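Against 2986 oligodendrocyte calls, 1527 of 7669 transcripts were called with the minimum on RNA only and a pseudocount of 0.1 (1500 shared) and 1947 without the variance trend (1842 shared). The other alternatives gave between 2025 (no replicate block) and 3440 (centring on summed FPKM). The last also reversed Fabp7 (-0.18) and Rlim (-0.22) and turned 8 of 27 list medians, and a pseudocount of 1 reversed Gm20594 (0.062). For the oligodendrocyte calls, leaving out 1 culture leaves no residual degree of freedom, so it gave values with no test. The minimum and the centring then used the remaining culture alone, so the members of a list can differ. List medians changed sign for 1 list without culture 1 and for 2 without culture 2. The RD change calls, 20 in all, became 305 with the replicate block, 0 without the trend (432 at an unadjusted p under 0.05), 42 with a minimum of 5 FPKM and 43 with a pseudocount of 1, and ranged from 2 to 879 with 1 culture left out. The causes were not tested. The alternative without shared exons was chosen after seeing the data.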

Other observations

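Some abundant RNAs had values that enter no comparison. Tmem38b, an ion channel of the ER, had the highest RNA of the oligodendrocyte libraries, 7334 and 9489 FPKM, with footprints of 8.25 FPKM in culture 1 and listed at 0 in culture 2; its exons overlap n-R5s185, a ribosomal RNA gene, on the same strand. Smim7, a small membrane protein, had 210 footprint FPKM in culture 1 on 25.9 RNA FPKM and was listed at 0 in culture 2, while OPCs had 215 and 230. Cckar, a peptide hormone receptor, had 23.9 and 44.9 RNA FPKM and was listed at 0 in all footprint libraries of both cell types. Footprints were at 1 FPKM or more in both oligodendrocyte cultures for 342 transcripts with RNA under 1 FPKM in at least 1 culture.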
